A study of Mus musculus with 9 samples.

Results

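Granulocyte-monocyte progenitors (GMP) were compared with the stem and multipotent progenitor fraction (LSK) of wild-type mouse bone marrow, 3 arrays against 3, which is 6 of the 9 arrays of the study. All 18193 genes with a probe set of exactly 1 gene symbol entered the comparison. The third group, GMP from littermates deleted for Ncstn, was not part of the contrast and is quoted beside some values. Its arrays entered the estimate of spread, the choice of probe set for each gene, the quantile normalization and some alternative fits. LSK cells were sorted as lineage negative, cKit+ and Sca1+, and GMP as lineage negative, cKit+, Sca1-, CD34+ and FcγRII/III+. The wild-type mice carried Ncstn flox/flox alleles without a Cre transgene, and the deleted group was Ncstn flox/flox Mx1-cre+. Every animal had received polyIC, a synthetic RNA duplex and interferon inducer, in 3 injections of 20 µg per g from 14 days of age. Cells were taken 4 weeks later, at 6 weeks of age, so both wild-type groups come from polyIC-treated animals. The labels do not say whether arrays of 1 group came from single or pooled mice, and p-values then measure the spread between these samples, which may be technical.

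Blood formation runs from stem cells that renew themselves, through multipotent cells that still have lymphoid, erythroid and myeloid options, to progenitors restricted to 1 branch. GMP are the restricted progenitors of neutrophils and monocytes. The transcription factors PU.1 (Spi1) and C/EBPα (Cebpa) drive entry into this branch, and its first visible product is the primary granule, a lysosome-like store of proteases and myeloperoxidase made at the promyelocyte stage.

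As deposited, 6910 genes (38.0%) differed at a limma adjusted p under 0.05, 1360 (7.48%) higher and 5550 (30.5%) lower in GMP. This split belongs partly to the scaling. The median array intensity was 98.3 to 103 in LSK and 67.3 to 68.6 in GMP, and the median log2 difference of all genes was −0.18 as deposited, 0.05 after quantile normalization and 0.17 with each array centred on its 75th percentile. Quantile normalization gave 3607 higher and 2797 lower, and centring gave 5948 higher and 2610 lower. Genes called in the same direction under all 3 scalings numbered 3582 (19.7%), 1346 (7.40%) higher and 2236 (12.3%) lower, and "rose" or "fell" below refers to these unless another basis is stated. The deposited shift was largest in the middle quintile of genes by level, at −0.51, and smallest in the brightest quintile, at −0.03. Arrays of 1 group correlated at 0.992 to 0.996 across genes and arrays of different groups at 0.966 to 0.976, with genes not being independent replicates.

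**Figure D1:**
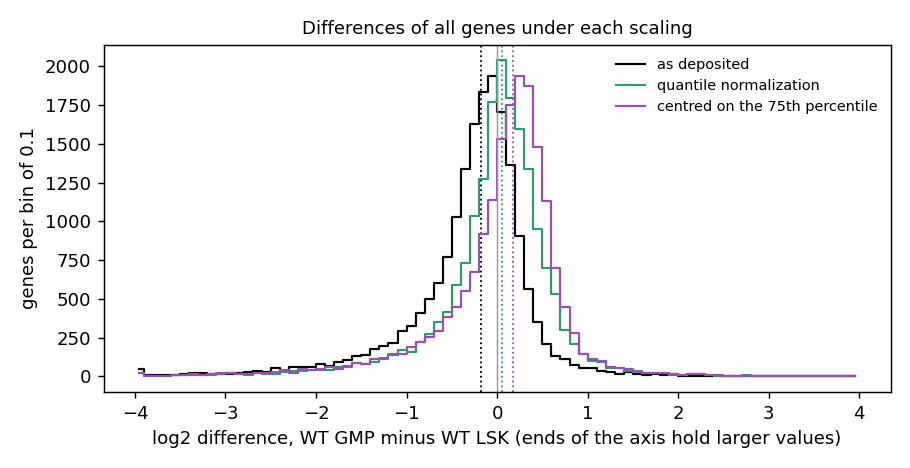
Number of genes (y axis) by log2 difference of wild-type GMP from wild-type LSK (x axis) for all 18193 genes, under the deposited values and 2 other scalings. Dotted lines mark the medians, −0.18, 0.05 and 0.17. The long arm toward GMP-low values is present under each scaling.

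For 54.6% of genes the LSK and GMP arrays did not overlap. Among called genes the falls were larger than the rises. With sizes as deposited, the median log2 difference was −1.38 among the 2236 genes that fell and 0.52 among the 1346 that rose. At least 2-fold differed 1663 of the former and 246 of the latter, and at least 8-fold 175 and 7. This imbalance depends on the scaling. Of all genes called as deposited, 1982 were at least 2-fold lower and 246 higher. The numbers were 1160 and 499 after quantile normalization, and 1215 and 541 under 75th percentile centring. All 3 GMP arrays lay at background, at or below the 95th percentile of 27 unspiked bacterial control probe sets (4.30 to 4.46 in log2), while all 3 LSK arrays lay above it for 369 genes, of which 281 fell. The opposite pattern held for 130 genes, of which 109 rose. In Ncstn-deleted GMP, 1230 of the 1346 risen and 2183 of the 2236 fallen genes had all 3 arrays on the same side of every LSK array as wild-type GMP. That group is set against the same LSK arrays, so the counts are not independent.

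The sorted identities were visible in the transcripts. The Fc receptor genes of the GMP gate were higher in GMP, and the defining LSK transcripts were higher in LSK. Fcgr3, which encodes the low-affinity IgG receptor III, read 10.36, 10.46 and 11.25 (log2 intensity) in the LSK arrays and 11.68, 11.85 and 11.86 in GMP. The groups did not overlap, with LSK array 3 the closest to GMP, and the difference was 1.10 (SE 0.22, adjusted p = 0.00510). Fcgr2b, the inhibitory IgG receptor, rose by 0.59 (SE 0.10). Kit, the stem cell factor receptor on which both sorts are positive, read 11.46 to 11.69 in LSK and 11.03 to 11.11 in GMP, and Cd34 read 12.49 to 12.62 and 12.04 to 12.23. These differences, −0.49 and −0.40, did not pass under 75th percentile centring (−0.14 and −0.05). The Cd34 call was also lost without LSK array 1 (adjusted p = 0.0711) or 3 (0.0766) or GMP array 1 (0.0935), 2 (0.0520) or 3 (0.0575). Sca1 is encoded by Ly6a, which is not analysed here.

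Of the fixed markers of each cell type, all 4 measured for LSK fell and all 6 measured for GMP rose. The summed linear intensity of the LSK markers was 11555 to 15236 in LSK and 1391 to 2167 in GMP, and that of the GMP markers 33765 to 41940 and 67302 to 69240. Markers of other cells were present in both sorts and mostly higher in LSK. Late neutrophil markers summed to 27355 to 43105 in LSK and 8394 to 14304 in GMP, B lymphoid markers to 4504 to 6827 and 1841 to 2369, and T and NK markers to 402 to 823 and 168 to 204. Erythroid markers summed to 4651 to 10845 and 1270 to 3223, and stromal and endothelial markers to 1239 to 2765 and 207 to 906. The sum of the monocyte and macrophage markers ran the other way, from 3884 to 6073 in LSK to 7101 to 9811 in GMP. As deposited, 2 of its 7 members were higher, Csf1r (1.11) and Ccr2 (1.03), and both rose. The other 2 called were lower, the complement genes C1qb (−1.22) and C1qc (−0.76), and did not pass under all scalings. No defining marker was at background in both groups. In GMP, Ncr1, Col3a1 and Lepr were, and in LSK Cdh5. LSK array 3 had the highest level of every late neutrophil, B and T cell marker measured. In bulk samples a lower share of cells of a type and less RNA per cell cannot be told apart, and the part these cells had in the differences below was not tested.

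The sex in the labels did not match the transcripts on 4 of the 9 arrays. Y-linked transcripts were present on wild-type GMP arrays 2 and 3, whose label is female. Ncstn-deleted GMP arrays 2 and 3, whose label is male, lacked them and carried Xist. By transcripts, array 1 was female and arrays 2 and 3 male in both wild-type groups, while all 3 deleted arrays were female. Ncstn followed the genotype labels, at 9.25, 9.31 and 9.26 in wild-type GMP and 7.79, 7.78 and 7.76 in deleted GMP, with arrays 2 and 3 of each group beside array 1. What led to the mismatch was not tested. RNA integrity, read from how far the 3 prime Actb probe set exceeded the 5 prime one, was 0.748 ± 0.108 (log2, SD, n = 3) in LSK and 0.577 ± 0.111 in GMP, with an exact 2-sided permutation p = 0.2 where 0.1 is the smallest possible. With that Actb ratio as a covariate the number of higher genes was 794 and with transcript sex as a covariate 1275, beside 1360.

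The 15 largest rises held secreted, granule and adhesion genes. Dmkn, which encodes the secreted protein dermokine, read 6.04, 6.32 and 6.28 in LSK and 10.07, 10.23 and 10.08 in GMP, a difference of 3.91 (15.1-fold, SE 0.37, adjusted p = 0.000142). Il6, the gene of the cytokine interleukin-6, read 3.80, 4.40 and 4.01 in LSK and 7.83, 8.27 and 7.48 in GMP. All LSK arrays were at background for Il6, and the rise was at least 10.9-fold. Gzmb, which encodes the protease granzyme B, rose by 3.64 (12.5-fold), and the orphan receptor gene Gpr85 rose at least 4.48-fold. Both the adhesion gene Cdh1, E-cadherin, at 3.18 and the growth factor gene Nrg1, neuregulin, at 2.59 were among them. Tctex1d1 (3.10), Scin, an actin-severing protein (2.90), the metalloprotease gene Mmp19 (2.72), Pm20d1 (at least 2.79-fold) and Tspoap1 (2.62) made up the rest with 4 further genes of the mast cell, basophil and eosinophil list, to which Gzmb also belongs. Other probe sets of Gpr85 ranged from −0.17 to 1.08.

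Of the 15 largest falls, 6 were at background in every GMP array. Mb21d2 read 9.35, 9.46 and 7.99 in LSK and 2.76, 3.15 and 3.03 in GMP, a fall of at least 24.3-fold. Its other, dim probe set did not follow (0.12). Ccn3, a secreted matrix protein, fell at least 19.8-fold, the semaphorin gene Sema3d at least 24.7-fold, the enolase gene Eno2 at least 15.2-fold, and the adhesion gene Chl1 and the kinase gene Nrk at least 12.0-fold each. Ddx4, an RNA helicase known from germ cells, read 10.27 to 10.32 in LSK and 4.65 to 5.21 in GMP (−5.30, SE 0.61). Mn1, a transcriptional cofactor whose overexpression drives myeloid leukaemia in mice, read 10.57 to 10.84 in LSK and 5.01 to 6.55 in GMP, a difference of −4.99 (31.7-fold, SE 0.44). The guidance receptor gene Robo4 (−4.98), the protease inhibitor gene Wfdc18 (−4.89), the pantetheinase gene Vnn1 (−4.57), Klhl4 (−4.43), Ccser1 (−4.38), the chemokine receptor gene Ccr9 (−4.33) and the growth factor gene Pdgfc (−4.32) completed them. The second Ccser1 probe set, at background level, stood at −0.04. All 30 of these genes had groups that did not overlap, as the rule for naming them requires.

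**Figure D2:**
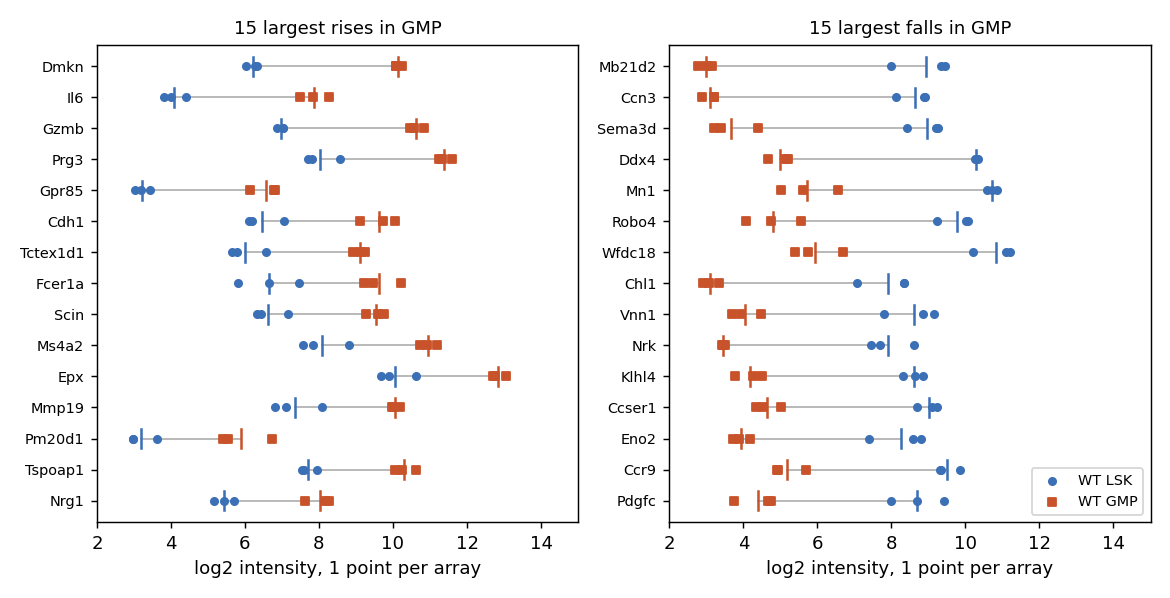
Log2 intensity (x axis) of the 15 largest rises and the 15 largest falls in GMP. Each point is 1 array, circles are the 3 LSK and squares the 3 GMP arrays, and vertical bars are group means. Mb21d2 and Ccn3 sit near the lower end of the scale in GMP, and Il6, Gpr85 and Pm20d1 in LSK.

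Across the 36 gene lists, 753 of 811 genes were measured. Median differences ran from −3.54 for the GIMAP GTPases to 2.05 for the mast cell, basophil and eosinophil genes, against −0.18 for all genes. The lists were drawn up with earlier results of these data known, so their counts are descriptions. They are read against the 7.40% of all genes that rose and the 12.3% that fell. Many lists had shares of fallen members near or below that, among them those of erythroid, MHC class I, Toll-like receptor and immediate early genes.

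Some counts of genes called as deposited moved with the arrays and covariates used. With GMP arrays 2 and 3 both left out, which leaves 1 GMP array, the count of higher genes was 8 for 13 in the primary granule list, 2 for 7 among myeloid transcription factors and 2 for 7 among monocyte and macrophage genes. The count of lower genes was then 13 for 20 among stem cell regulators, 6 for 13 among mature lymphoid markers and 4 for 14 among megakaryocyte genes. With the Actb ratio as a covariate it was 14 for 22 in lymphoid priming and 9 for 14 among megakaryocyte genes, and 3 for 7 myeloid factors were higher.

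**Figure D3:**
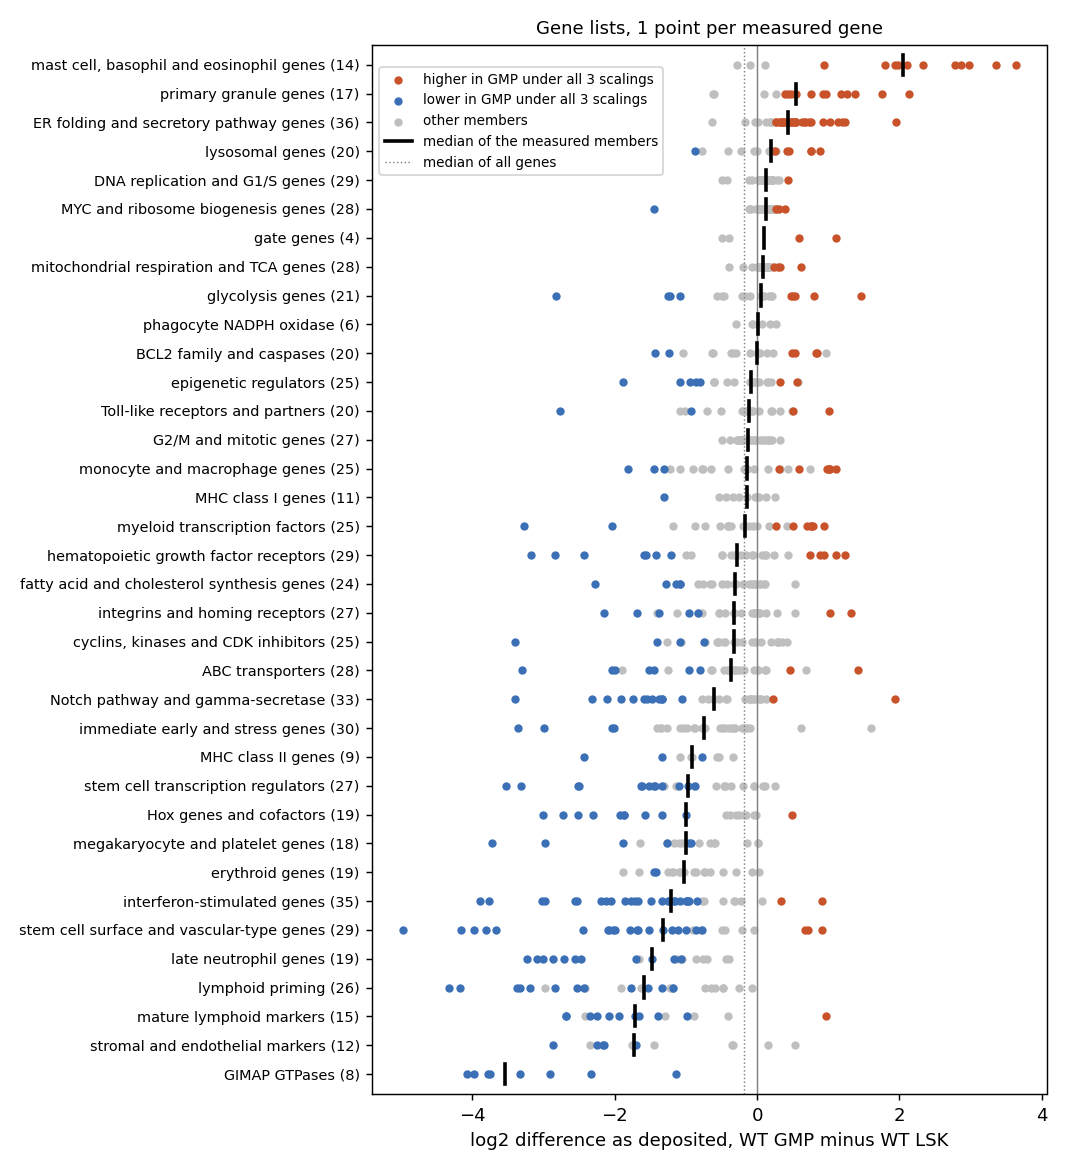
Log2 difference as deposited, wild-type GMP minus LSK (x axis), of every measured member of the 36 gene lists (rows, with the number of measured genes). Orange points rose and blue points fell under all 3 scalings, grey points did neither, black bars are list medians and the dotted line is the median of all genes, −0.18. Granule and ER lists sit to the right, and GIMAP, lymphoid and stem cell lists to the left.

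Stem cell regulators were lower in GMP. Of 27 measured transcription regulators of stem cells, 20 were lower and 0 higher as deposited, and 13 fell under all scalings (median −0.97). Mecom, a zinc finger factor needed for stem cell maintenance, read 12.19, 11.95 and 11.79 in LSK and 8.27, 8.83 and 8.24 in GMP. The gap was 11.5-fold (−3.53, SE 0.20, adjusted p = 1.47e-05), and its dimmer probe sets stood at −0.27 to −1.05. Hlf, a stem cell transcription factor, fell by 3.31 (SE 0.27), Mycn, the MYC family member of early progenitors, by 2.51 (SE 0.22), the homeobox gene Meis1 by 2.52 (SE 0.36) and the ETS factor gene Erg by 1.63 (SE 0.13). Runx1, the master regulator from which definitive blood cells arise, stood at −0.05 (adjusted p = 0.858), with overlapping groups of 11.42 to 11.87 and 11.44 to 11.86.

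Of 29 surface and vascular-type genes of stem cells, 20 fell and 3 rose (median −1.32). Procr, the endothelial protein C receptor used to isolate stem cells, read 10.42 to 11.13 in LSK and 6.55 to 7.52 in GMP (14.1-fold, SE of log2 0.26, adjusted p = 3.28e-05). Esam, an endothelial adhesion molecule, fell by 3.98 (SE 0.23) and Thy1 by 2.10 (SE 0.18). The 3 members that rose were the phosphatase gene Ptpru (0.67, SE 0.12), the adhesion gene Pecam1 (0.71, SE 0.18) and the selectin gene Sele (at least 1.44-fold). Pecam1 had adjusted p = 0.0561 with the replicate number as a block. All fits with that block used the 6 wild-type arrays alone, whereas the main fit used all 9 arrays. Sele read 3.91 to 4.07 in LSK, at background, and lost its call without LSK array 3 (adjusted p = 0.0521) or GMP array 1 (0.0652) or 3 (0.0646).

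Homeobox genes fell along with their cofactor Meis1. Of 19 measured, 10 fell and 1 rose (median −0.99). Hoxa10 read 11.14, 10.02 and 10.49 in LSK and 7.93, 7.47 and 7.23 in GMP, a difference of −3.01 (8.03-fold, SE 0.31), although its second, dim probe set stood at −0.42. Hoxa3 fell by 2.31 (SE 0.22), Hoxa7 by 0.99 and Hoxb2 at least 2.41-fold, into background. Hoxb7, the member that rose, read 3.76 to 3.97 in LSK, at background, and 4.24 to 4.46 in GMP, at least 1.05-fold.

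Genes of lymphoid priming, the low-level expression of lymphoid genes in multipotent cells, were lower in GMP. Of 26 measured, 22 were lower and 0 higher as deposited, and 12 fell under all scalings (median −1.58). Flt3, the cytokine receptor that marks lymphoid-primed multipotent progenitors, read 12.30, 12.26 and 12.16 in LSK and 9.59, 10.21 and 9.62 in GMP (−2.43, SE 0.24, adjusted p = 0.000169). Il7r, the interleukin-7 receptor of lymphoid progenitors, fell by 2.84 (SE 0.45), Ltb, lymphotoxin β, by 4.18 (SE 0.22), the adaptor gene Lax1 by 3.37 (SE 0.16), the chemokine receptor gene Ccr7 by 3.19, and Ighm, the μ heavy chain constant region, by 2.53. Dntt, which encodes terminal transferase, read 12.79 to 13.12 in LSK and 10.76 to 11.23 in GMP. It yet stood at adjusted p = 0.0567 (−1.91, SE 0.69) without the replicate block and 0.00146 with it. The block fit also leaves out the Ncstn-deleted arrays, and these changes were not separated here.

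Mature lymphoid markers were also lower, 10 of 15 having fallen and 1 having risen (median −1.71). The T cell genes Cd2 and Cd4 fell by 2.69 and 2.07, and Ncr1, the NK cell receptor gene, fell at least 1.76-fold into background. Nkg7, a cytotoxic granule membrane protein listed also with the primary granule genes, rose by 0.97 (SE 0.16). The GIMAP GTPases, small GTP-binding proteins known for lymphocyte survival, fell in 8 of 8 measured genes (median −3.54). Gimap3 read 9.60, 9.02 and 9.33 in LSK and 4.89, 5.01 and 5.83 in GMP (16.9-fold, SE of log2 0.33). Its relatives Gimap5, Gimap1 and Gimap7 fell by 2.91, 2.34 and 3.75. All 8 were also lower when GMP arrays 2 and 3 were both left out.

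Of the myeloid transcription factors that passed under all scalings, more rose than fell. Of 25 measured, 7 rose and 2 fell, beside 7.40% and 12.3% of all genes (median −0.17). Cebpa read 11.98, 12.02 and 12.24 in LSK and 12.83, 12.82 and 12.87 in GMP, 1.69-fold (0.75, SE 0.09, adjusted p = 0.000364). Spi1, which encodes PU.1, read 9.73, 9.90 and 10.01 in LSK and 10.42, 10.76 and 10.72 in GMP (0.76, SE 0.12, adjusted p = 0.00165). Gfi1, the repressor that favours neutrophils, rose by 0.70 (SE 0.16). Irf8, the factor that favours monocytes, rose by 0.95 (SE 0.27, adjusted p = 0.0243). Its call was lost without LSK array 1 (adjusted p = 0.0795) or 2 (0.0567) or GMP array 2 (0.0769) or 3 (0.0717). Myb, a proliferation factor of progenitors, stood 0.27 higher (adjusted p = 0.0266, but 0.0764 with the replicate block and 0.0562 to 0.0787 without LSK array 2 or any 1 GMP array). The count of 7 was 4 without LSK array 2 or GMP array 1 or 3, and 3 without GMP array 2. The count of lower genes as deposited was 5 in the main fit. It was 7 with the 6 wild-type arrays alone and 8 with the replicate block added to them. The 2 that fell were Irf4, an interferon regulatory factor of lymphoid and dendritic cells, from 10.86 to 11.25 down to 6.94 to 8.25 (−3.28, SE 0.47), and the zinc finger gene Egr2 (−2.04, SE 0.44). Cebpe is not analysed here.

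Primary granule genes rose. Of 17 measured, 13 rose and 0 fell under all scalings (median 0.55). Elane, neutrophil elastase, read 12.21, 12.13 and 12.40 in LSK and 13.44, 13.42 and 13.41 in GMP, 2.26-fold (SE of log2 0.09, adjusted p = 6.91e-05). Mpo, myeloperoxidase, read 13.56, 13.48 and 13.64 in LSK and 13.96, 13.97 and 13.91 in GMP, 1.31-fold (0.39, SE 0.08, adjusted p = 0.00455). The GMP arrays lay close together for both genes, and the brightest probe set on any of these arrays had a linear intensity of 23176. Prtn3 and Ctsg, the genes of proteinase 3 and cathepsin G, rose by 0.92 (SE 0.11) and 0.76 (SE 0.11). Ms4a3, a membrane protein of granulocyte-monocyte progenitors, rose by 1.38 (SE 0.11) and Cst7, the protease inhibitor cystatin F, by 1.75 (SE 0.12). Alas1, the first enzyme of heme synthesis, which supplies the cofactor of myeloperoxidase, moved most in the list. It read 9.98, 10.14 and 10.06 in LSK and 12.26, 12.24 and 12.09 in GMP, 4.40-fold (SE of log2 0.10). Lyz2, lysozyme, went the other way as deposited (−0.62, SE 0.15), a call that was lost under 75th percentile centring (−0.27).

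Late neutrophil genes, made after the promyelocyte stage, were lower in GMP than in LSK. Of 19 measured, 16 were lower and 0 higher as deposited, and 11 fell under all scalings (median −1.47). Mmp9, gelatinase B of tertiary granules, read 11.35, 11.55 and 12.36 in LSK and 8.03, 8.66 and 8.88 in GMP (−3.23, 9.38-fold, SE 0.35, adjusted p = 0.000258). Padi4, the deiminase that citrullinates histones in neutrophils, fell by 2.72 (SE 0.19), the collagenase gene Mmp8 by 2.87 and the surface antigen gene Cd177 by 3.00 (SE 0.40). LSK array 3 was the highest of the LSK arrays for 16 of the 19 genes, and all 3 LSK arrays lay above all 3 GMP arrays for 17, where 41.5% of all genes were lower in GMP without overlap. Between the groups, primary and late granule genes thus stood on opposite sides in the same arrays. Among the LSK arrays they did not, as array 3 was also the highest for 15 of the 17 primary granule genes.

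**Figure D4:**
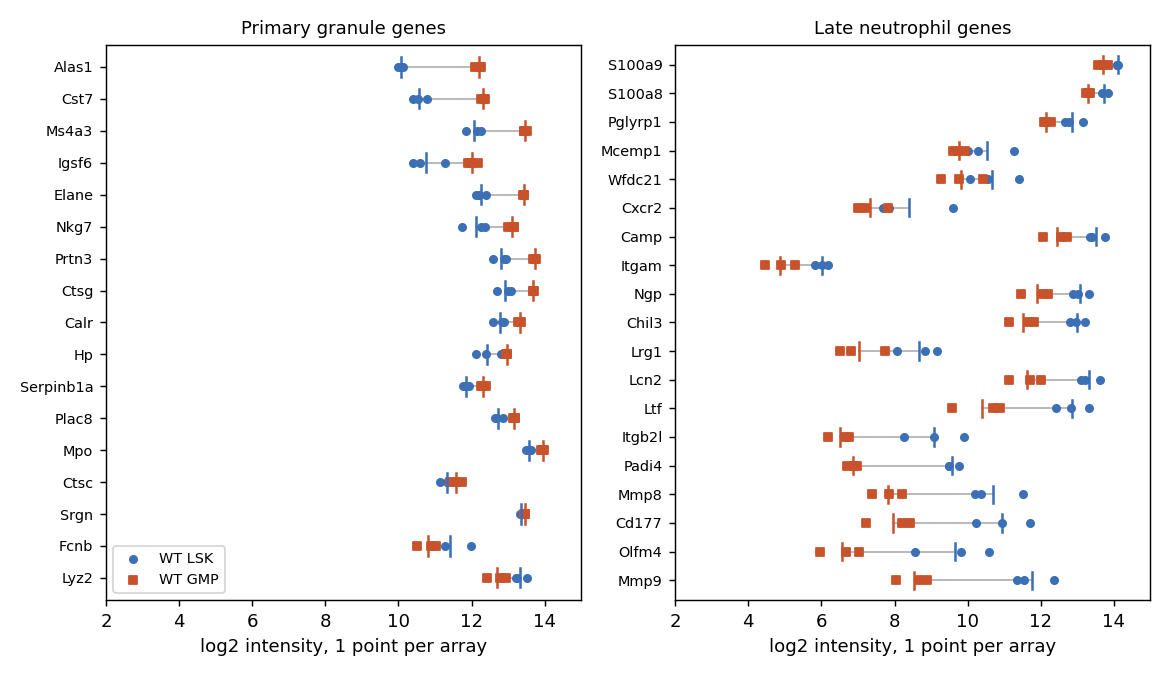
Log2 intensity (x axis) of primary granule genes (left) and late neutrophil genes (right), each point 1 array, circles LSK, squares GMP, and vertical bars the group means. Elane and Alas1 are higher in the 3 GMP arrays, and Mmp9 and Padi4 in the 3 LSK arrays.

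Genes of mast cells, basophils and eosinophils rose in 11 of 14 cases, and 0 fell (median 2.05). Epx, eosinophil peroxidase, read 9.68, 9.88 and 10.61 in LSK and 12.71, 12.76 and 13.05 in GMP, 6.89-fold (SE of log2 0.25, adjusted p = 0.000119). The eosinophil granule protein genes Prg3 and Prg2 rose by 3.36 (SE 0.26) and 3.49-fold (SE of log2 0.16), and Ms4a2 and Fcer1a, the β and α chains of the high-affinity IgE receptor, by 2.87 (SE 0.29) and 2.98 (SE 0.43). Il5ra, the interleukin-5 receptor of eosinophils, rose by 0.94 (SE 0.16) from a low level of 4.75 to 4.86. LSK array 3 was the highest of the LSK arrays for 9 of the 14 genes, among them Epx at 10.61, and every GMP array still lay above it for the 11 that rose. The 3 that passed no test were Csf2rb2 (−0.29), Gata2 (0.11) and Tpsb2 (−0.09). The count was 11 without any 1 array, and 9 without both GMP arrays 2 and 3.

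Monocyte and macrophage genes had 7 risen and 3 fallen of 25, beside 7.40% and 12.3% of all genes (median −0.13). The fallen share is thus near that of all genes. Csf1r, the receptor for macrophage colony-stimulating factor, read 10.43, 11.14 and 11.25 in LSK and 11.65, 12.22 and 12.29 in GMP (1.11, SE 0.31, adjusted p = 0.0213), and its call was lost without LSK array 1 (adjusted p = 0.0672) or GMP array 2 (0.0665) or 3 (0.0708). Ms4a6c rose by 1.01 (SE 0.13), the factor XIII chain gene F13a1 by 0.99 (SE 0.15), the monocyte chemokine receptor gene Ccr2 by 1.03 (SE 0.19), and Ly86, the partner of an LPS receptor homologue, by 1.01 (SE 0.21). The fibronectin gene Fn1 fell by 1.81 (SE 0.28) and the macrophage scavenger gene Cd5l at least 2.09-fold, into background.

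Receptors for growth factors and cytokines followed no single direction, with 5 risen and 7 fallen of 29 (median −0.29). Ifngr1, the ligand-binding chain of the interferon γ receptor, rose by 1.24 (SE 0.12, adjusted p = 0.000151), Il6ra by 0.89 (SE 0.21) and Il3ra by 0.74. The Il3ra call was lost without LSK array 2 or 3 or any 1 GMP array (adjusted p = 0.0545 to 0.129). Il1r1, the interleukin-1 receptor, fell by 1.59 (SE 0.16), Tgfbr2 by 1.21 and Epor, the erythropoietin receptor, by 1.41. Csf3r, the receptor for granulocyte colony-stimulating factor, stood at −0.23 (adjusted p = 0.248) and Csf2ra at 0.24 (adjusted p = 0.283). The count of 5 higher was 3 without GMP array 2 or 3.

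Among erythroid genes 2 of 19 fell, beside 12.3% of all genes, and 7 were lower as deposited, beside 30.5% (median −1.02). Klf1, the erythroid transcription factor, read 11.33, 12.04 and 11.85 in LSK and 10.78, 9.63 and 10.45 in GMP (−1.45, SE 0.30, adjusted p = 0.00621). Gata1 stood at −0.74 (adjusted p = 0.0352) and passed under neither other scaling, nor with the replicate block (0.0821), nor without any 1 array other than GMP array 1 (0.0528 or more). GMP array 1 was the highest of the GMP arrays for both. The deposited count of 7 was 12 without GMP array 1 and 4 without LSK array 2 or 3 or GMP array 2. It was 8 with the 6 wild-type arrays alone and 11 with the replicate block added to them. It was 1 with the Actb ratio or with label sex as a covariate and 0 without both GMP arrays 2 and 3. LSK array 3 was the highest of the LSK arrays for 15 of the 19 genes. Of 18 megakaryocyte and platelet genes 6 fell and 0 rose. Tubb1, the platelet β-tubulin, read 9.99, 9.75 and 9.27 in LSK and 5.92, 6.06 and 5.84 in GMP (13.3-fold, SE of log2 0.18, adjusted p = 7.78e-06), and the platelet glycoprotein gene Gp5 fell by 1.26. Their deposited count of 14 was 9 without GMP array 3.

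Genes of protein folding and secretion in the endoplasmic reticulum (ER) rose together. The ER folds secreted and granule proteins with chaperones and disulfide isomerases, and the unfolded protein response raises these genes through XBP1 and ATF6, which act at a promoter motif called the ER stress response element. Of 36 measured genes, 28 rose and 0 fell under all scalings (median 0.44), where 7.40% of all genes rose. Pdia6, a disulfide isomerase, read 10.43, 10.59 and 10.66 in LSK and 11.56, 11.58 and 11.61 in GMP, 2.04-fold (SE of log2 0.09, adjusted p = 0.000103). Manf, an ER-resident secreted factor, rose by 0.93 (SE 0.10), Edem1, which feeds misfolded glycoproteins to degradation, by 1.14 (SE 0.13), and Rpn1, a subunit of the oligosaccharyl transferase, by 0.76 (SE 0.09). The cochaperone gene Sdf2l1, named after its values were seen, had the largest rise of the list, from 10.12, 9.57 and 10.65 to 12.05, 12.04 and 12.12 (3.88-fold, SE of log2 0.25). Xbp1 itself, named in the same way, rose by 0.64 (SE 0.14), while Ddit3, the stress-induced factor CHOP, was lower as deposited (−0.64, SE 0.16) and did not pass under quantile normalization (−0.41) or centring (−0.29). The count of 28 was 23 to 28 when any 1 array was left out, 25 with the replicate block, 21 with the Actb ratio as a covariate and 15 without both GMP arrays 2 and 3.

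The ER stress response element was searched for as CCAAT and CCACG with any 9 bases between them, on both strands of the 250 bases before the start of each gene, taken from RefSeq (GRCm38.p6). It was found in 7 of the 28 ER genes with a promoter in that table (25.0%) and in 19 of 14452 tested genes (0.131%). All 7, Hspa5, Pdia6, Calr, Canx, Hsp90b1, Creld2 and Dnajc3, had risen, by 0.27 to 1.03. Most ER genes with a promoter had risen, however. The motif was in 7 of the 21 that rose (33.3%) and in 0 of the other 7. Among the 1060 risen genes with a promoter 8 held it (0.755%), and among the 1746 fallen genes 1 did (0.0573%). Of these 8 risen genes, 7 are the ER genes just named, so this share is not independent of the list. The 3 with the smallest p are shown because they place the motif before the start of genes that rose, with the motif in capitals. A match is a description of letters, and binding was not measured. They lie at chr12:17266339-17266588, plus strand (motif from base −98), chr10:86705445-86705694, minus strand (from −212 and −107), and chr15:88819396-88819645, plus strand (from −126), counted from the gene's start. Hsp90b1, the ER paralogue of the chaperone HSP90, rose by 0.67 (SE 0.09), and Creld2, an ER stress-inducible protein, by 0.73 (SE 0.10).
Pdia6 promoter: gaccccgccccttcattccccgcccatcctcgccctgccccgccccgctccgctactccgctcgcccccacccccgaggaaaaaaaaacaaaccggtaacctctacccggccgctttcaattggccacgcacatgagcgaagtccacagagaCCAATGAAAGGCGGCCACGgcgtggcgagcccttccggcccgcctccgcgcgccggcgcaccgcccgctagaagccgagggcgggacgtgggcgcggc
Hsp90b1 promoter: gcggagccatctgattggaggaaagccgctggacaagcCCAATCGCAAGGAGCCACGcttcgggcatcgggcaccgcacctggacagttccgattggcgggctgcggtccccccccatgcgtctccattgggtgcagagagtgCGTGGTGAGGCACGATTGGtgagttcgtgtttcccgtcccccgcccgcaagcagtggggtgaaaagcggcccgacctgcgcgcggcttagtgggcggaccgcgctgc
Creld2 promoter: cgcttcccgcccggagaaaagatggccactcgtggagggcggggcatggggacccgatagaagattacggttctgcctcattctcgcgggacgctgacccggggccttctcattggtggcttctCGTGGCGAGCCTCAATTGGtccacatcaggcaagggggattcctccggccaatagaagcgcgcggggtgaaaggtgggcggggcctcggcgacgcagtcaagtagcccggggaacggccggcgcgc

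Interferon-stimulated genes were lower in GMP. Both groups came from polyIC-treated animals and no untreated group was measured, so the part of polyIC in this difference was not tested. Of 35 measured, 29 were lower and 2 higher as deposited, and 25 fell and 2 rose under all scalings (median −1.21), where 12.3% of all genes fell. Oas3, a sensor of double-stranded RNA, read 7.40, 7.61 and 7.53 in LSK and 5.10, 4.77 and 5.00 in GMP (5.89-fold, SE of log2 0.12, adjusted p = 7.78e-06). Its paralogue Oas2 fell by 2.54 (SE 0.13), the antiviral GTPase gene Mx2 at least 2.44-fold, and Ddx58, the RNA sensor RIG-I, by 2.05 (SE 0.14). Ifit1, Oas1a and the interferon-induced gene Rtp4, the last named after its values were seen, fell by 3.02, 1.25 and 3.76. The 2 that rose were the GTPase genes Gbp3, from 9.84 to 10.23 up to 10.91 to 10.98 (0.92, SE 0.12), and Ifi47 (0.33, SE 0.08), whose call was lost without GMP array 3 (adjusted p = 0.0573). The deposited count of 29 was 28 to 29 without any 1 array and 27 without both GMP arrays 2 and 3.

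The core of the interferon-stimulated response element, GAAA repeated after any 2 bases, on either strand and counting overlapping matches, was found in 13 of the 26 interferon genes with a promoter and in 453 of 14452 tested genes (3.13%). It was in 8 of the 17 interferon genes that fell (47.1%) and in 5 of the other 9 (55.6%). Gbp3, which rose, holds it too. Among all fallen genes 4.07% held it and among all risen genes 3.40%. The 3 with the smallest p among the fallen genes that hold it are shown, matches in capitals. They lie at chr5:120777660-120777909, minus strand (match from −75), chr5:120907526-120907775, minus strand (from −20 and −14, overlapping) and chr19:34640639-34640888, plus strand (from −104 and −85).
Oas3 promoter: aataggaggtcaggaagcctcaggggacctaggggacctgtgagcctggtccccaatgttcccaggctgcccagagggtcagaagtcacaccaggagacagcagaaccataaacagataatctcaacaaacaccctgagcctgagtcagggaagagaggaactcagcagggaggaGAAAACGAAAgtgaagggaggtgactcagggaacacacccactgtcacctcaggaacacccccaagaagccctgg
Oas1a promoter: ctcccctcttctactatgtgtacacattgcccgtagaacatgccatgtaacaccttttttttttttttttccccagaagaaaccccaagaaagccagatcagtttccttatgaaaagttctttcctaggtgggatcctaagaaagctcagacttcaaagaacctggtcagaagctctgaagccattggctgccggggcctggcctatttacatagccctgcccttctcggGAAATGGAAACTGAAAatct
Ifit1 promoter: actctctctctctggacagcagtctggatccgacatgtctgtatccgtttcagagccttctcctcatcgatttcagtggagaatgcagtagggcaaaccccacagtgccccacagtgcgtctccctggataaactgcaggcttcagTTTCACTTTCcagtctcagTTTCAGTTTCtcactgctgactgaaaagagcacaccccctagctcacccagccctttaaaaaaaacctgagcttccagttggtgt

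**Figure D5:**
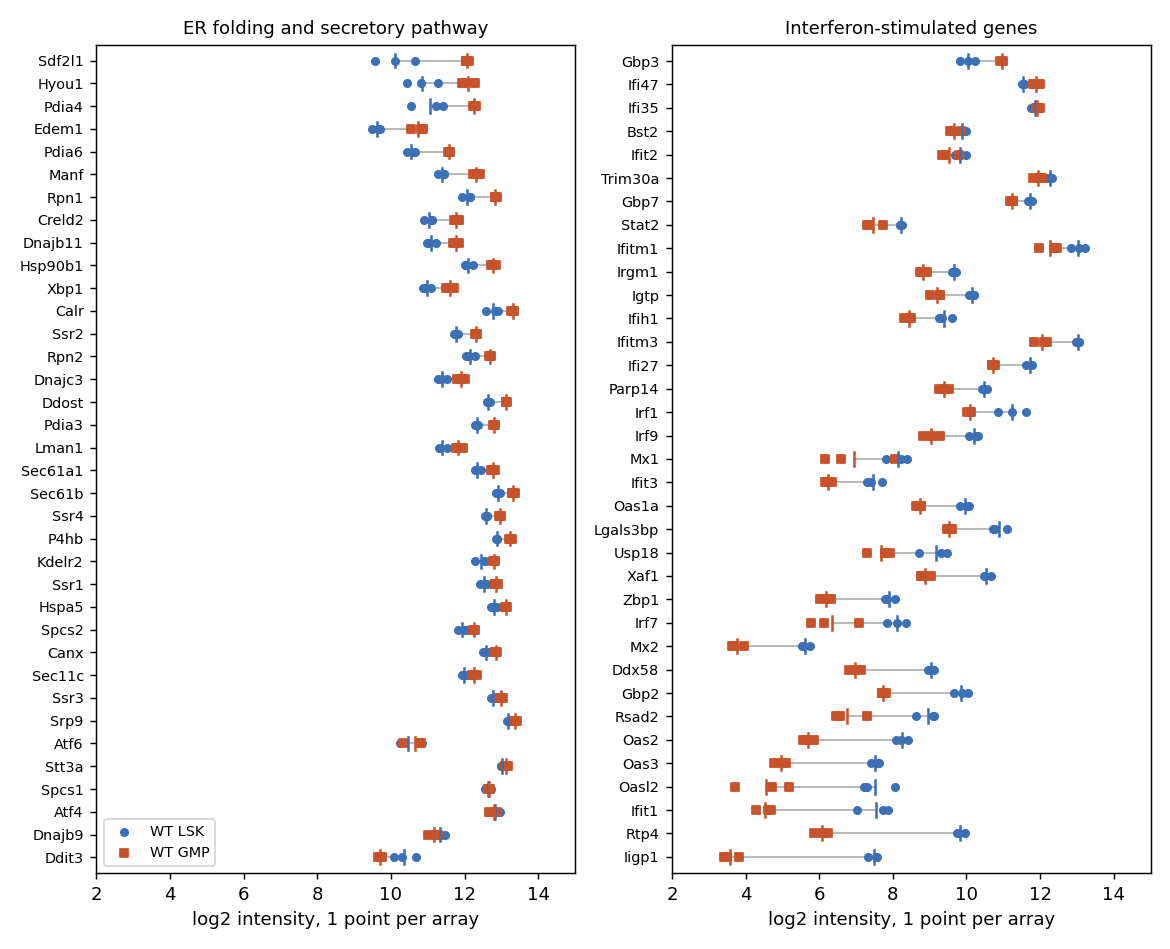
Log2 intensity (x axis) of the 36 ER folding and secretory genes (left) and the 35 interferon-stimulated genes (right), ordered by difference, each point 1 array, circles LSK, squares GMP, and vertical bars the group means. The GMP squares lie to the right for 28 ER genes that rose and to the left for 25 interferon genes that fell.

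Few genes of antigen presentation passed under all scalings. Of 9 class II genes 3 fell, beside 12.3% of all genes (median −0.91), namely H2-Ob (−2.44, SE 0.23), Ciita, the class II transactivator (−1.34, SE 0.22), and H2-Oa (−0.77), and the deposited count of 4 was 7 with the replicate block. Of 11 class I genes 1 fell, a share below that of all genes, namely Nlrc5, the class I transactivator (−1.31, SE 0.18). H2-K1 stood at −0.33 as deposited and −0.36 after quantile normalization, but at 0.017 under 75th percentile centring, and its call was lost without LSK array 1 (adjusted p = 0.0564) or GMP array 2 (0.0529). Of 20 Toll-like receptors and partners 2 fell and 2 rose (median −0.12), the latter 1 without any array but GMP array 1. The endosomal RNA receptor gene Tlr7 fell from 8.32 to 8.97 down to 5.66 to 5.95 (6.82-fold, SE of log2 0.16) and the flagellin receptor gene Tlr5 at least 1.76-fold, into background. No member of the phagocyte NADPH oxidase passed (0 of 6).

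Few cell cycle genes passed under all scalings. Of 29 DNA replication genes 1 rose, Cdc45 (0.43), and of 27 mitotic genes 0 rose or fell under all scalings. Their medians were 0.12 and −0.13 as deposited, 0.13 and −0.00 after quantile normalization and 0.47 and 0.22 under centring, where 24 and 9 were called higher. Cdc45 lost its call without LSK array 1 (adjusted p = 0.0569) or GMP array 2 (0.0622). Among 25 cyclins, kinases and inhibitors 4 fell, a share near the 12.3% of all genes (median −0.33). Cdkn1c, which encodes the quiescence inhibitor p57, read 7.67, 8.06 and 6.88 in LSK and 4.13, 4.15 and 4.12 in GMP, at background, and fell at least 9.22-fold. Cdkn1b, the gene of the inhibitor p27, fell by 0.75 (SE 0.14). Ccnd1, the gene of cyclin D1, read 11.35 to 11.49 in LSK and 9.88 to 10.09 in GMP (−1.40, SE 0.11).

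Growth and energy genes were near 0 as deposited. Of 28 MYC and ribosome biogenesis genes 3 rose and 1 fell (median 0.12), and of 28 mitochondrial genes 4 rose (median 0.09), with counts of 0 and 1 risen as deposited with the replicate block. The count of 3 was also 0 without LSK array 1 or GMP array 2 and 1 without LSK array 3 or GMP array 1, and the count of 4 was 1 to 3 without any 1 array. Under centring 24 and 26 were higher. Mxd1, a MYC antagonist, was the member that fell (−1.45, SE 0.13), and Cycs, cytochrome c, rose by 0.62 (SE 0.09, adjusted p = 0.00101). Myc read 12.50 to 12.74 in LSK and 12.72 to 12.95 in GMP (0.23, adjusted p = 0.0878). In glycolysis, 5 of 21 rose and 4 fell (median 0.05), with different isoforms of the same step on opposite sides. The phosphofructokinase gene Pfkp rose from 10.28 to 10.48 up to 11.15 to 11.18 (0.80, SE 0.10), and its isoform Pfkm fell from 10.80 to 11.03 down to 9.58 to 9.81 (−1.25, SE 0.10). Hk3, the myeloid hexokinase, rose by 1.47 (SE 0.18), and the aldolase C gene Aldoc fell by 2.83 (SE 0.23). The count of 5 was 3 without GMP array 1.

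Lipid synthesis genes were lower where they moved, with 5 of 24 fallen and 0 risen (median −0.31). The stearoyl-CoA desaturase gene Scd1 read 10.55, 10.63 and 11.24 in LSK and 8.73, 8.16 and 8.69 in GMP (−2.28, SE 0.32). Fads1 and Fads2, the desaturases of polyunsaturated fatty acids, fell by 1.13 and 1.28, and Srebf2, the sterol-sensing transcription factor, by 1.08 (SE 0.11). Of 20 lysosomal genes 6 rose and 1 fell (median 0.20). Hexa, a β-hexosaminidase subunit, rose by 0.88 (SE 0.09), Ctsz, cathepsin Z, by 0.76, and Ctsl, cathepsin L, fell by 0.87 (SE 0.16).

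Notch signalling, in which γ-secretase cuts the receptor to free its transcriptionally active end, had 12 of 33 measured genes fallen and 2 risen (median −0.61). Notch1, named after its values were seen, read 11.92, 12.18 and 11.84 in LSK and 10.41, 10.79 and 10.74 in GMP (2.51-fold, SE of log2 0.23, adjusted p = 0.00240). The coactivator gene Maml2 fell at least 2.06-fold, Il2ra, a Notch-responsive gene of T cell progenitors, at least 6.74-fold, and the γ-secretase subunit gene Aph1b by 1.91 (SE 0.18). Dtx4, an E3 ligase of the Deltex family, rose from 8.83 to 9.21 up to 10.96 to 11.05 (3.84-fold, SE of log2 0.14). Ncstn, intact in both wild-type groups, stood at 0.23 (adjusted p = 0.0423). That call was lost with the replicate block (adjusted p = 0.119) and without LSK array 2 or 3 or any 1 GMP array (0.0809 to 0.121), and its dimmer probe set was called the other way (−0.59).

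Homing and adhesion genes had 2 risen and 5 fallen of 27, beside 7.40% and 12.3% of all genes (median −0.32). The risen share is thus near that of all genes. The chemokine receptor gene Ccr1 rose by 1.32 (SE 0.25). The sialic acid receptor gene Cd33 fell by 2.15 (SE 0.17), Itgb2, the β2 integrin of leukocytes, by 1.69 (SE 0.17), and the adhesion gene Icam1 by 1.37 (SE 0.17). Of 28 ABC transporters 7 fell and 2 rose, the latter 1 without GMP array 1 or 3. Abcb1a, a drug efflux pump known from stem cells, fell at least 2.93-fold to background, Abcg3 by 3.31 (SE 0.39), and the peroxisomal transporter gene Abcd2 rose by 1.42 (SE 0.13).

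Apoptosis genes included both risen and fallen members. Of 20 measured, 4 rose and 2 fell (median 0.00). Bid, a BH3-only activator, read 11.18, 11.18 and 11.16 in LSK and 12.04, 12.04 and 11.97 in GMP (0.84, SE 0.09, adjusted p = 0.000248), and Bak1, a pore-forming effector, rose by 0.83 (SE 0.11). Apaf1, the apoptosome scaffold, stood 0.53 higher. Casp1 stood at 0.49, and its call was lost without LSK array 2 (adjusted p = 0.0575) or GMP array 2 (0.0510) or 3 (0.0596). Casp6 fell by 1.23 (SE 0.10) and Bok by 1.43 (SE 0.21). Of 25 epigenetic regulators 5 fell and 2 rose (median −0.08), the latter 1 with the replicate block or without any array but LSK array 2, with the remodeller gene Chd3 at −1.88 (SE 0.17), the methylcytosine oxidase gene Tet1 at −0.94 (SE 0.13) and the histone methyltransferase gene Kmt2a at −0.86 (SE 0.14).

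Immediate early and stress genes, which respond within minutes to handling and signals, were lower as deposited in 13 of 30 cases, beside 30.5% of all genes. Under all scalings 4 fell, a share near the 12.3% of all genes (median −0.75). Socs3, a feedback inhibitor of cytokine signalling, read 9.54, 9.80 and 10.55 in LSK and 6.50, 7.38 and 5.94 in GMP (10.2-fold, SE of log2 0.43), and Ier5 fell 4.01-fold (SE of log2 0.19). The count of 13 was 4 without LSK array 1 or GMP array 3, 6 without LSK array 2 or GMP array 1, and 19 with the replicate block. It was 4 with the Actb ratio as a covariate and 2 without both GMP arrays 2 and 3. Of 12 stromal and endothelial markers 5 fell (median −1.73), among them Mmp2 (−2.16), Col3a1 (at least 4.15-fold), Fabp4 (−2.87) and Sparc (−2.15). Collagen transcripts varied between arrays of 1 group, with Col1a1 at 6.89, 10.33 and 10.61 in LSK and 8.92, 4.87 and 8.74 in GMP (adjusted p = 0.285), named after its values were seen.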

How the data were processed

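Messenger RNA of sorted mouse bone marrow cells was measured on Affymetrix arrays, 3 per group. Per the labels' protocols, 5 ng of total RNA was amplified and biotin-labelled. What the authors deposited is a linear intensity for each probe set, and the submitters' processing notes name RMA, without a version. Joint or separate normalization of the 9 arrays is not given in the sources used here. Log2 was taken. Arrays have no sequencing depth, and their number limits the precision.

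Of 45101 probe sets 34945 had 1 symbol, 932 several, 9160 none, and 64 were controls. For each of 18193 genes the probe set of highest mean over the 9 arrays was used, and 18031 genes matched RefSeq (GRCm38.p6). The test was limma's (lmFit and eBayes, version 3.58.1, R 4.3.3, 2-sided) on 3 group means over 9 arrays, with 6 residual degrees of freedom, and a gene was called where its Benjamini-Hochberg value over all genes was under 0.05. All adjusted p-values are limma's. On data simulated for this comparison over 18193 genes, 79 of 100 genes changed by 1 and 95 of 100 changed by 2 (log2) were recovered, with 4 false calls. The simulation held 200 changed genes and independent noise, without the intensity shift between LSK and GMP arrays or pairing by replicate number. It therefore gives no error rate for calls that depend on these. A fold against a group at background is a lower bound against the higher of background limit and signal on each array.

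Whether the replicate numbers in the titles pair LSK with wild-type GMP arrays is not known. Same-numbered arrays' deviations from their group means correlated at 0.135, 0.219 and 0.276 without genes of the sex chromosomes, and differently numbered ones at −0.184 to −0.0261. Deviations cancel within a group, so the second range is not independent of the first, and genes are not independent replicates. The values are a hint of pairing and do not establish it. Blocking on that number, in a fit of the 6 wild-type arrays alone, gave 6772 called genes, 5969 of them shared with the 6910.

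Named genes are the genes of the sort, the 15 largest rises and falls called under all scalings (without sex-linked marker transcripts, predicted genes and antigen receptor segments), up to 4 list members of smallest p, members called against their list, and fixed regulators. A selection of them is printed. Chosen after their values were seen were Sdf2l1, Xbp1, Rtp4, Notch1, Col1a1, the genes with the ER motif or a printed promoter, and the mast list members that passed no test. Promoters were searched in the 250 bases before the gene's start. Members and lists were chosen with earlier results of these data known. Alternatives were 2 scalings, 6 arrays, a filter on dim genes, the mean of probe sets, the block, sex, the Actb ratio and leaving out arrays.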

Additional observations from a re-analysis of the deposited data

Results flagged for a closer look

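Sex-linked transcripts went against the label on 4 arrays, among them wild-type GMP replicates 2 and 3, which belong to this comparison. The Y-linked transcript Eif2s3y read 11.06 (log2 intensity) in wild-type GMP replicate 2 and 10.89 in wild-type GMP replicate 3, against 3.52 in LSK replicate 1 and 3.05 in wild-type GMP replicate 1, which are labelled female. Xist, the RNA of the inactive X chromosome, showed the reverse on Ncstn-deleted GMP replicates 2 and 3, labelled male, at 12.56 and 12.28, against 6.23 and 7.10 in LSK replicates 2 and 3, labelled male. Replicates 2 and 3 of the 2 genotypes thus mismatch in opposite ways, while Ncstn was 9.31 and 9.26 in wild-type and 7.78 and 7.76 in deleted GMP replicates 2 and 3, as in replicate 1 (9.25 and 7.79). Whether the sex labels were exchanged between the genotypes was not tested.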

How the results depend on the processing

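The number of genes higher in GMP, 1360 as deposited, was 3607 after quantile normalization, 5948 with 75th percentile centring, 798 without the dimmest 40% of genes, 794 with the Actb ratio as a covariate, 905 to 1183 without any 1 array (905 without GMP replicate 2) and 450 with both GMP arrays of male transcripts left out, which leaves 1 GMP array assumed to vary like the other groups. The number lower, 5550, was 2797, 2610 and 3376 under the first 3 of these, 4377 to 4915 without any 1 array and 2712 with both arrays left out. Genes differing at least 2-fold, 2228 as deposited, were 1452 without the dimmest 40%, a filter that removes genes from the test, and 2012 to 2363 without any 1 array. The 6 wild-type arrays alone gave 1343 higher and 5618 lower. With a replicate block added to these 6, pairing arrays by number, 1207 were higher and 5565 lower. Of the 3582 genes called under all scalings, 3290 were also called with the block. Of 215 named genes, 203 called as deposited, 15 lost their call with the block and 1 gained it. Directions reversed for Rara after quantile normalization (0.17), for H2-K1 (0.017) and Prc1 (0.11) under centring, and for Ncstn with the mean of all probe sets (−0.18), and the cause was not tested. The alternatives with both arrays left out and with transcript sex were chosen after seeing the data. Signal over background limits 3007 genes at background in both groups.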
